A study of Mus musculus with 7 samples.

Results

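A list of 40 genes of macrophages and monocytes was followed in RNA from CD8 T cells that had been sorted out of mouse tumours. The list held genes of macrophage identity, complement, Fc receptors, uptake, lipid handling, pathogen sensing and activation, and a gene entered the tests when it reached at least 1 TPM in at least 3 of the 7 libraries. TPM is a transcript abundance corrected for transcript length and for library size, so levels of different genes can be compared. Of the 40 listed genes, 39 passed, out of 13798 of 55357 genes in the table. Marco, a scavenger receptor, did not pass and was listed at 0 to 0.04 TPM in ENT1KO and at 0.09 to 0.38 TPM in WT. Nearest to the threshold inside it were Gpnmb, at 0.68 to 1.71 TPM in ENT1KO and 1.4 to 3.25 TPM in WT, and Nos2, at 0.27 to 1.5 TPM in ENT1KO and 1.64 to 3.75 TPM in WT. In 4 genes (Mertk, Tlr4, Nos2 and Chil3) fewer than 3 ENT1KO libraries reached 1 TPM, so that these passed through WT, and 32 reached it in each library.

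The libraries came from MCA205 tumours, a transplantable mouse fibrosarcoma, grown under the skin of mice and harvested after 14 days. ENT1KO hosts (Slc29a1-/-, replicates 11, 12, 14 and 15) were compared with wild-type C57Bl/6 hosts (WT, replicates 1, 2 and 3). ENT1, encoded by Slc29a1, moves adenosine and other nucleosides through the cell membrane, and the study asked how uptake of adenosine by this transporter bears on antitumour immunity. Live CD45+ CD8+ cells were sorted, at least 30000 per condition, and poly(A) RNA was sequenced from 75 ng of RNA. The labels give neither the animals' age or sex nor whether each library is a separate animal, so p-values measure the spread between these libraries, which may be technical. The labels name no cell type to which the knockout is restricted, and the MCA205 cells were the same in both hosts.

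Macrophages are phagocytes that arise from embryonic precursors or from blood monocytes and depend on the receptor CSF1R for survival. They take up dying cells and particles through scavenger and Fc receptors, make the complement component C1q, and process lipids in lysosomes. In tumours they form a large myeloid population whose members range from inflammatory cells that make nitric oxide to cells marked by arginase, the mannose receptor or the TREM2 lipid programme, and none of these genes defines a CD8 T cell.

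Cd8a, which encodes a chain of the sort marker CD8, lay between 858 and 1304 TPM in ENT1KO and between 309.8 and 684 TPM in WT. Slc29a1 itself lay between 13.2 and 17.6 TPM in ENT1KO and between 49.7 and 58.9 TPM in WT. Depth was close to equal, at 18624318 to 19635168 gene-assigned reads in ENT1KO and 18632462 to 19660792 in WT, taking each step of the deposited normalized counts as 1 read. Across all 13798 genes the median log2 difference was 0.145 on log2(TPM + 1) and 0 on deposited normalized counts. With that scaling 2894 genes were called higher and 3859 lower, where 3800 and 3182 were on TPM. Differences below are as measured, without subtracting the median. ENT1KO replicate 14 and WT replicate 2 carried the most RNA of the listed genes in their groups, and ENT1KO replicate 15 the least.

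Macrophage and monocyte transcripts were lower in ENT1KO. Their summed level was 823, 1027, 2043 and 271 TPM in ENT1KO, against 5952, 8326 and 5384 TPM in WT, in the order of replicates 11, 12, 14 and 15 and then 1, 2 and 3, an order kept in all lists of values that follow. The groups did not overlap, and the ENT1KO values spread 7.55-fold where the WT values spread 1.55-fold. The means were 1041 ± 741 TPM in ENT1KO (SD, n = 4) and 6554 ± 1560 TPM in WT (SD, n = 3), or 0.104% and 0.655% of each library's TPM. A gate on CD8 is meant to exclude macrophages. Which cells these transcripts came from, and whether they came with whole cells or with free RNA, was not tested. In bulk RNA, fewer macrophages, less RNA per macrophage, less carry-over through the sort and lower levels in other cells of the ENT1KO samples cannot be told apart.

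**Figure D1:**
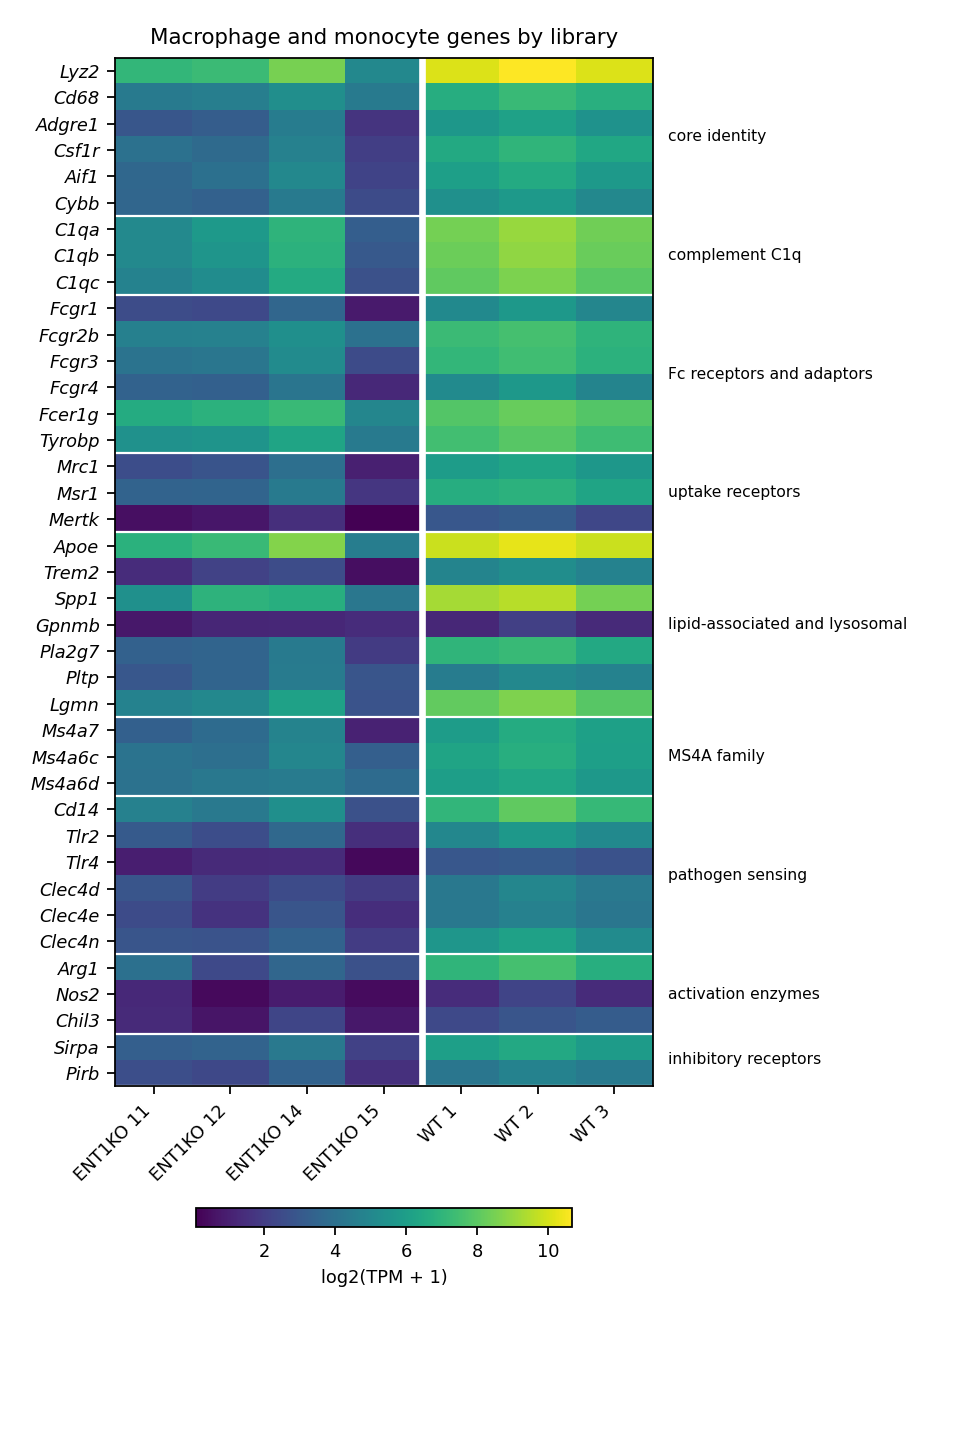
Level of each of the 39 tested genes in log2(TPM + 1) (colour) in the 4 ENT1KO libraries (left) and the 3 WT libraries (right), with rows grouped by role. The WT columns are brighter in nearly every row, and ENT1KO replicate 15 is the darkest column.

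Of the 39 tested genes, 38 fell in ENT1KO at a limma-trend adjusted p under 0.05 and none rose, all 39 differences being negative, where 23.1% of the 13798 genes were called lower and 27.5% higher. Of the 35 genes with at least 1 TPM in 3 or more ENT1KO libraries, 34 were called lower. All 38 had groups that did not overlap, as 24.9% of all genes did in the lower direction and 30.3% in the higher. The median log2 difference of the 39 was -2.70, beside 0.145 for all genes. On log2(TPM + 1) these differences understate the change of low genes. In the authors' deposited table, the same 38 had an adjusted p under 0.05 and a negative fold change, as did 25.8% of the 18878 genes with an adjusted p. Without WT replicate 2 the count in limma was 28, and without ENT1KO replicate 15 the median was -2.24.

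**Figure D2:**
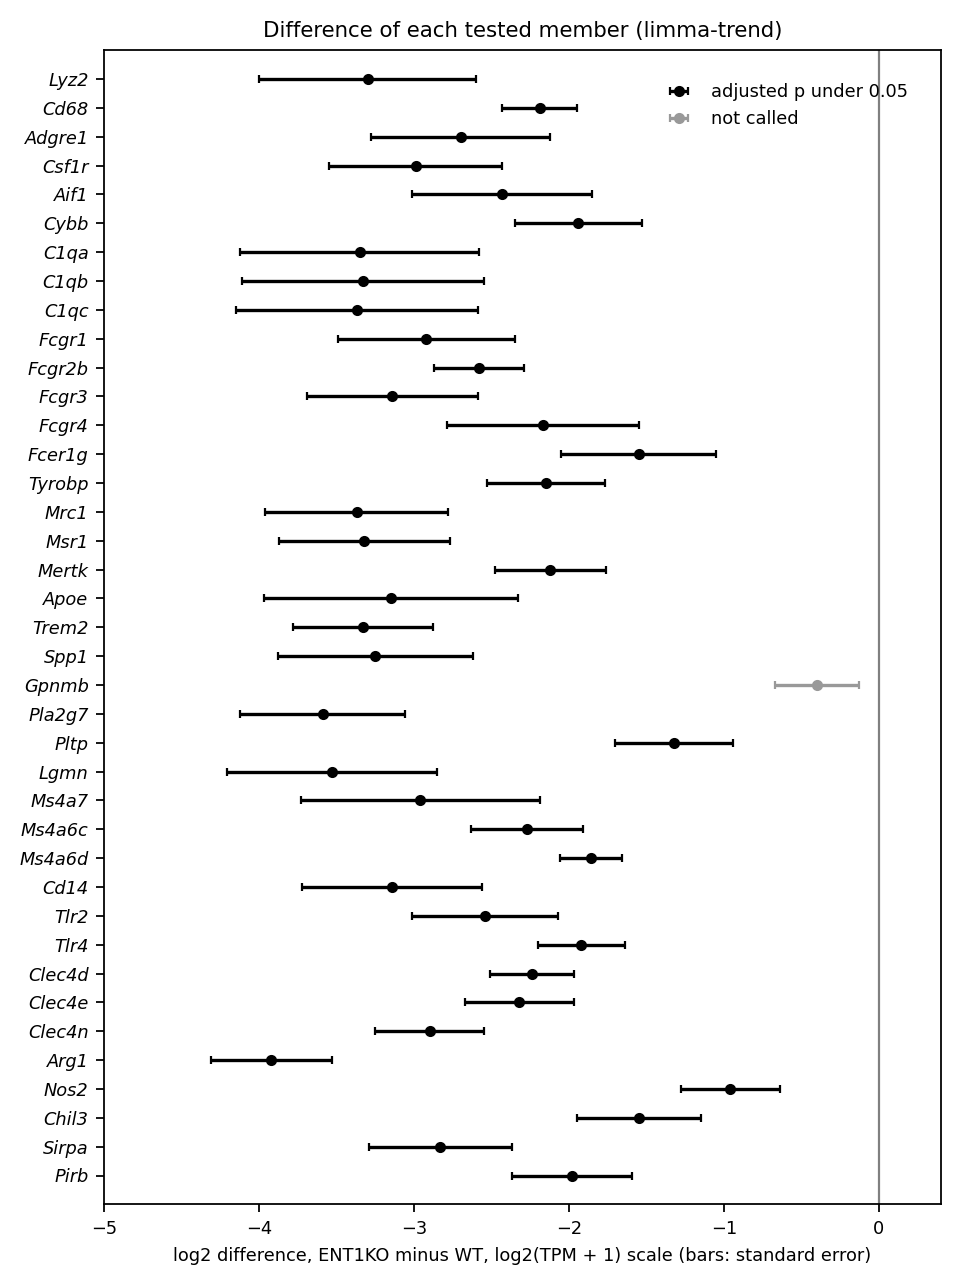
log2 difference, ENT1KO minus WT, of each tested gene on the log2(TPM + 1) scale, with bars for the standard error of the limma-trend fit. Points lie between -3.92 (Arg1) and -0.40 (Gpnmb, grey, the one gene not called).

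The libraries kept nearly the same order from gene to gene. WT replicate 2 was the highest WT library for 38 of the 39 genes, the exception being Chil3, while it was highest for 29% of all tested genes. ENT1KO replicate 14 was the highest ENT1KO library for 34 of the 39 genes (32% of all genes) and replicate 15 the lowest for 35 (33.8% of all genes). Expressed against the WT mean of each gene, the median over the 39 genes was 14.3% in ENT1KO replicate 11, 13% in replicate 12, 30.7% in replicate 14 and 3.91% in replicate 15.

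The starts of these genes were read for letters bound by PU.1, a transcription factor that macrophage development requires. Its core, GAGGAA on either strand, was searched in the 250 bases before the RefSeq start (GRCm38.p6, another build than the deposited GRCm39 positions). Of 40 genes, 28 matched a RefSeq promoter, and of the 27 that were also tested, 15 (55.6%) held the letters, against 23.1% of 27025 promoters of the same length. The AP-1 letters TGANTCA were in 3 of the 27 (11.1%), against 6.87% of all promoters. The lysosomal gene element TCACGTGA was in 0 of the 27, against 0.803% of all promoters. No motif searched contains another. A match describes letters only, and no match says only that the letters are not in this window. Shown are 5 promoters, 5′ to 3′ with the GAGGAA letters (TTCCTC on the other strand) in capitals: C1qb and C1qc, which changed in step, Mrc1 and Trem2, which fell further than the core macrophage genes, and Gpnmb, which was not called and holds no match.
C1qb (chr4:136886201-136886450, minus strand): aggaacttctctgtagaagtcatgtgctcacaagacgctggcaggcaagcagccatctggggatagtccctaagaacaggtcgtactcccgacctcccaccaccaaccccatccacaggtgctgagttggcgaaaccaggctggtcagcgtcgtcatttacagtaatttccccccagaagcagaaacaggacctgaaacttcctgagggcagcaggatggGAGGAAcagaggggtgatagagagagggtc
C1qc (chr4:136892915-136893164, minus strand): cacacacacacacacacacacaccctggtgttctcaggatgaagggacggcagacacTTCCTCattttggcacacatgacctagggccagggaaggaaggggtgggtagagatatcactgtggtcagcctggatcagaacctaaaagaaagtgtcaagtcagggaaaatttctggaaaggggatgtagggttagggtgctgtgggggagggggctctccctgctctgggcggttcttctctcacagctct
Mrc1 (chr2:14229164-14229413, plus strand): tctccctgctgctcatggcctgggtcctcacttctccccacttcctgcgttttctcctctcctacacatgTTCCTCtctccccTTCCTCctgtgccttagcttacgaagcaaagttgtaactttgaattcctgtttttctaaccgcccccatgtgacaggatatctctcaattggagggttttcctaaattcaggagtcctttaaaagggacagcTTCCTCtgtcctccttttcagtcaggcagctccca
Trem2 (chr17:48346151-48346400, plus strand): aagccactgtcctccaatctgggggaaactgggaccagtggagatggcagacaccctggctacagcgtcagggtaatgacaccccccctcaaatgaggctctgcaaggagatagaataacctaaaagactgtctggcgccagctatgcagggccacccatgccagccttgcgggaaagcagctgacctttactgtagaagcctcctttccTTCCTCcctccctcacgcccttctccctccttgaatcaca
Gpnmb (chr6:49036268-49036517, plus strand): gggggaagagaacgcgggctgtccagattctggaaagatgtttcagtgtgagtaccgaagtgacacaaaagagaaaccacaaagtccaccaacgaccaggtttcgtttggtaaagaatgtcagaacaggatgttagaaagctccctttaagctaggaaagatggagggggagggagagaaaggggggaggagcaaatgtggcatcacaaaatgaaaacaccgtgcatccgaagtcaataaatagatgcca
The match nearest to the start lay 30 bases before it in C1qb, 193 in C1qc, 35 in Mrc1 and 40 in Trem2, and Mrc1 held 3. Gpnmb was not alone in lacking the letters: Lyz2, Pla2g7 and Lgmn also held no match and were called lower. Whether the letters bear on the differences was not tested.

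All 6 core identity genes fell, with log2 differences between -3.30 and -1.94. Lyz2, the lysozyme of macrophages, monocytes and neutrophils (chromosome 10, 117113236 to 117118226, GRCm39), stood at 136, 155, 365 and 31.98 TPM in ENT1KO, against 1096, 1623 and 1096 TPM in WT. Each ENT1KO library was below each WT library, with replicate 15 an order of magnitude below replicate 14, and the fit gave a log2 difference of -3.30 ± 0.70 (SE; limma-trend adjusted p = 0.00709). Cd68, a lysosomal glycoprotein of phagocytes (chromosome 11, 69555039 to 69556979), was at 21.1, 23.7, 39.3 and 20.01 TPM in ENT1KO, against 102, 150.3 and 107 TPM in WT. Its ENT1KO libraries lay closer together than those of Lyz2, and replicate 15 was level with replicates 11 and 12. Cd68 had a log2 difference of -2.19 ± 0.24 (SE; limma-trend adjusted p = 0.00121). Aif1, the calcium-binding protein IBA1, was at 11.3, 14.9, 31.5 and 3.57 TPM in ENT1KO, against 66.1, 91.9 and 54.7 TPM in WT, and Cybb, the catalytic subunit of the phagocyte oxidase, at 10.8, 9.47, 20.3 and 4.72 TPM in ENT1KO, against 40.8, 55.4 and 31.6 TPM in WT. Both were lowest in replicate 15 and free of overlap, with log2 differences of -2.43 and -1.94 (limma-trend adjusted p = 0.0112 and 0.00667). Csf1r, the receptor for the macrophage growth factor CSF1, averaged 14.1 ± 9.16 TPM in ENT1KO and 99.95 ± 24.5 TPM in WT, and Adgre1, the F4/80 antigen, 9.78 ± 8.57 TPM in ENT1KO and 54.9 ± 13.4 TPM in WT (SD, n = 4 ENT1KO and 3 WT libraries, here and in the means that follow). Their log2 differences were -2.99 and -2.70 (limma-trend adjusted p = 0.00454 and 0.00749). Csf1r shares its locus with Hmgxb3, so reads could be split between them. Without WT replicate 2 Aif1 lost its call (limma adjusted p = 0.0594), and without ENT1KO replicate 15 the Lyz2 difference was -2.66.

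The 3 chains of C1q, the recognition subunit of the classical complement pathway, fell together. C1qa (chromosome 4, 136623228 to 136626114, GRCm39) was at 32.5, 54.4, 125 and 8.36 TPM in ENT1KO, against 354, 516 and 328 TPM in WT, and C1qb (chromosome 4, 136607440 to 136613498) at 32.7, 46.99, 118 and 7.17 TPM in ENT1KO, against 310.1, 476 and 304 TPM in WT. C1qc (chromosome 4, 136617115 to 136620376) was at 26.5, 36.99, 93.8 and 5.55 TPM in ENT1KO, against 273, 376 and 245 TPM in WT. The groups were far apart and ENT1KO replicate 14 stood nearest to WT in each chain. The log2 differences were -3.35, -3.33 and -3.37 with standard errors of 0.77, 0.78 and 0.78 (limma-trend adjusted p = 0.00934, 0.0103 and 0.00962). The proportions of the chains overlapped between groups: C1qa per C1qb was 0.994, 1.16, 1.07 and 1.17 in ENT1KO, against 1.14, 1.08 and 1.08 in WT, and C1qc per C1qb was 0.810, 0.787, 0.798 and 0.774 in ENT1KO, against 0.880, 0.790 and 0.807 in WT. The 3 genes lie side by side on chromosome 4. Without WT replicate 2 none of the 3 kept its call (limma adjusted p = 0.0588, 0.0635 and 0.0595), and without ENT1KO replicate 15 the differences were -2.67, -2.63 and -2.67.

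The Fc receptors bind antibody, and all 6 genes of this group fell. Fcer1g, the gamma chain that signals for activating Fc receptors and is also made by NK cells and some T cells, was at 94.8, 116, 153 and 29.9 TPM in ENT1KO, against 225, 297 and 230.1 TPM in WT. Tyrobp, the DAP12 adaptor of TREM2 and of many NK receptors, was at 41.99, 46.8, 75.3 and 21.1 TPM in ENT1KO, against 174, 243 and 164 TPM in WT. Fcer1g had the smallest fall of the group, at 39.3% of the WT mean, with a log2 difference of -1.55 ± 0.50 (SE; limma-trend adjusted p = 0.0341). Tyrobp had a log2 difference of -2.15 ± 0.38 (SE; limma-trend adjusted p = 0.00341). Fcgr3, an activating low-affinity IgG receptor, was at 16.1, 17.6, 35 and 4.6 TPM in ENT1KO, against 134, 171 and 118 TPM in WT, a log2 difference of -3.14 ± 0.55 (SE; limma-trend adjusted p = 0.00347). Among the receptors themselves the inhibitory Fcgr2b averaged 26.2 ± 10.1 TPM in ENT1KO and 156 ± 32.1 TPM in WT, the high-affinity Fcgr1 5.20 ± 4.18 TPM in ENT1KO and 38.5 ± 12.2 TPM in WT and Fcgr4 9.48 ± 6.59 TPM in ENT1KO and 37.9 ± 11.9 TPM in WT, with log2 differences of -2.58, -2.92 and -2.17 (limma-trend adjusted p = 0.00121, 0.00504 and 0.022). Fcgr2b per summed Fcgr1, Fcgr3 and Fcgr4 was 0.806, 0.813, 0.623 and 2.21 in ENT1KO, against 0.769, 0.686 and 0.703 in WT, so 3 ENT1KO libraries lay near the WT ratio and replicate 15 stood apart. The Fcgr genes are paralogs on chromosomes 1 and 3 and reads could be shared among them. Fcer1g lost its call without WT replicate 1, 2 or 3 or ENT1KO replicate 11 (limma adjusted p = 0.0645, 0.132, 0.0678 and 0.0655), and Fcgr4 without WT replicate 2 (0.101). The Fcgr4 difference was -1.58 without ENT1KO replicate 15.

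Receptors for uptake were among the deepest falls, with means between 10.7% and 11.8% of WT. Mrc1, the mannose receptor CD206 (chromosome 2, 14234203 to 14336868, GRCm39), was at 4.93, 6.05, 14.4 and 1.04 TPM in ENT1KO, against 59.5, 75.2 and 51.2 TPM in WT, a log2 difference of -3.37 ± 0.59 (SE; limma-trend adjusted p = 0.00353). Msr1, the class A scavenger receptor, was at 10.1, 10.3, 20.8 and 2.39 TPM in ENT1KO, against 103, 116 and 76.8 TPM in WT, a log2 difference of -3.32 ± 0.55 (SE; limma-trend adjusted p = 0.00295). In both the highest ENT1KO library, replicate 14, reached 14.4 and 20.8 TPM, and the lowest WT library 51.2 and 76.8 TPM. Mertk, a receptor for dying cells, averaged 0.743 ± 0.781 TPM in ENT1KO and 6.29 ± 2.03 TPM in WT and had a log2 difference of -2.12 ± 0.36 (SE; limma-trend adjusted p = 0.00274).

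Genes of lipid handling and lysosomes included 6 genes that fell and the one gene of the 39 that was not called. Apoe, the apolipoprotein that macrophages secrete (chromosome 7, 19430034 to 19433113, GRCm39), was at 112, 150.0, 415 and 22.8 TPM in ENT1KO, against 911, 1251 and 899.6 TPM in WT, a log2 difference of -3.15 ± 0.82 (SE; limma-trend adjusted p = 0.0158). Spp1, the secreted phosphoprotein osteopontin, was at 40.6, 119, 106 and 18.3 TPM in ENT1KO, against 602, 732 and 352 TPM in WT, a log2 difference of -3.25 ± 0.63 (SE; limma-trend adjusted p = 0.0052). Its highest ENT1KO library was replicate 12, as for no other of the 39 genes. Trem2, the lipid receptor that pairs with the Tyrobp adaptor, was at 1.67, 3.5, 4.79 and 0.39 TPM in ENT1KO, against 28.4, 37.7 and 26.8 TPM in WT, and its mean was 8.36% of WT. Pla2g7, which cleaves platelet-activating factor, was at 9.45, 10.3, 21.1 and 2.74 TPM in ENT1KO, against 129, 148 and 87.6 TPM in WT, or 8.95% of WT. Even in ENT1KO replicate 14 these stood at 15.5% and 17.3% of the WT mean, against a median of 30.7% over the 39 genes. Their log2 differences were -3.33 and -3.59 (limma-trend adjusted p = 0.00158 and 0.0021).

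Lgmn, the lysosomal protease legumain, was at 26.6, 31.3, 68.6 and 5.83 TPM in ENT1KO, against 276, 389 and 238 TPM in WT, a log2 difference of -3.53 ± 0.68 (SE; limma-trend adjusted p = 0.00503). Pltp, a phospholipid transfer protein, was at 6.71, 10.4, 21.6 and 6.26 TPM in ENT1KO, against 21.9, 31.4 and 26.6 TPM in WT. Its ENT1KO replicate 14 came close to WT replicate 1, and the log2 difference of -1.32 ± 0.38 (SE; limma-trend adjusted p = 0.0215) was the smallest of the called genes of this group. Pltp overlaps Ctsa, which averaged 142 TPM in ENT1KO and 182 TPM in WT, so reads could be split. Gpnmb, a glycoprotein of lipid-laden macrophages, was at 0.68, 1.36, 1.4 and 1.71 TPM in ENT1KO, against 1.4, 3.25 and 1.56 TPM in WT. The groups overlapped at this low level and the log2 difference of -0.40 ± 0.27 (SE; limma-trend adjusted p = 0.236) did not pass. In the authors' deposited table Gpnmb had a log2 fold change of -0.75 (adjusted p = 0.21). Apoe and Pltp lost their calls without WT replicate 2 (limma adjusted p = 0.0848 and 0.0896), and Pltp also without ENT1KO replicate 11 or WT replicate 3 (0.0544 and 0.0536). Without ENT1KO replicate 15 the differences of Apoe and Lgmn were -2.39 and -2.90, and without ENT1KO replicate 14 that of Apoe was -3.77. After quantile normalization Gpnmb was at 0.08 (limma adjusted p = 0.825).

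The MS4A family encodes membrane proteins with several transmembrane spans, and its 3 listed members sit together on chromosome 19. Ms4a7, a macrophage member, was at 9.11, 12.9, 26.9 and 1.11 TPM in ENT1KO, against 59.5, 96.97 and 68.2 TPM in WT. Ms4a6c was at 16.4, 14.7, 29.6 and 8.73 TPM in ENT1KO, against 75.3, 106 and 65.4 TPM in WT. In ENT1KO replicate 15 the level was 1.48% of the WT mean for Ms4a7 and 10.6% for Ms4a6c. Ms4a6d averaged 17.2 ± 3.87 TPM in ENT1KO and 65.04 ± 14.1 TPM in WT and its 4 ENT1KO libraries were close together (12.6 to 21.6 TPM). The log2 differences of Ms4a7, Ms4a6c and Ms4a6d were -2.96, -2.27 and -1.86 (limma-trend adjusted p = 0.0151, 0.0024 and 0.00121). Ms4a6c and Ms4a6d are paralogs and reads could be shared. Ms4a7 lost its call without WT replicate 2 (limma adjusted p = 0.078), and its difference was -2.24 without ENT1KO replicate 15.

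All 6 pathogen-sensing genes fell. Cd14, the co-receptor for lipopolysaccharide, was at 25.98, 19.6, 39.4 and 5.59 TPM in ENT1KO, against 133, 269 and 142 TPM in WT, a log2 difference of -3.14 ± 0.58 (SE; limma-trend adjusted p = 0.00427). WT replicate 2 had about as much Cd14 as the other WT libraries together, and all 3 were above ENT1KO. Clec4n, the lectin Dectin-2, which recognizes fungal mannans, was at 6.35, 5.9, 9.78 and 2.88 TPM in ENT1KO, against 49.05, 69.7 and 35.95 TPM in WT, a log2 difference of -2.90 ± 0.35 (SE; limma-trend adjusted p = 0.0013). Tlr2 averaged 6.51 ± 4.17 TPM in ENT1KO and 38.2 ± 11.5 TPM in WT and Tlr4, the lipopolysaccharide receptor, 1.09 ± 0.635 TPM in ENT1KO and 6.64 ± 0.837 TPM in WT, with log2 differences of -2.54 and -1.92 (limma-trend adjusted p = 0.00416 and 0.00178). Clec4d and Clec4e, lectins that neutrophils also express and that recognize mycobacterial glycolipid, had log2 differences of -2.24 and -2.32 (limma-trend adjusted p = 0.00129 and 0.00202). Clec4d averaged 4.17 ± 1.64 TPM in ENT1KO and 22.99 ± 6.07 TPM in WT and Clec4e 3.7 ± 2.14 TPM in ENT1KO and 20.9 ± 4.29 TPM in WT.

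Arg1, the arginase of alternatively activated and suppressive myeloid cells (chromosome 10, 24791119 to 24803382, GRCm39), had the largest difference of the 39 genes. It was at 14.97, 4.37, 11.03 and 5.46 TPM in ENT1KO, against 128, 187 and 104 TPM in WT. The mean was 6.41% of WT, a log2 difference of -3.92 ± 0.39 (SE; limma-trend adjusted p = 0.00121), and the highest ENT1KO library was replicate 11 rather than replicate 14. Arg1 kept its call in all alternatives tried. Nos2, the inducible nitric oxide synthase of inflammatory macrophages, was near the detection threshold, averaging 0.735 ± 0.574 TPM in ENT1KO and 2.37 ± 1.20 TPM in WT, a log2 difference of -0.96 ± 0.32 (SE; limma-trend adjusted p = 0.0346). Arg1 per Nos2 was 9.98, 16.2, 12.98 and 17.1 in ENT1KO, against 74.6, 49.8 and 63.4 in WT, without overlap, but the divisor in ENT1KO was 0.27 to 1.5 TPM. Chil3, the chitinase-like protein Ym1, was at 1.51, 0.59, 3.9 and 0.68 TPM in ENT1KO, against 4.32, 6.24 and 7.95 TPM in WT, a log2 difference of -1.55 ± 0.40 (SE; limma-trend adjusted p = 0.0144). Its highest WT library was replicate 3. Nos2 lost its call without ENT1KO replicate 12 or 15 or WT replicate 1 or 2 (limma adjusted p = 0.0843, 0.0754, 0.0531 and 0.131) and after quantile normalization, where its difference was -0.48 (0.224).

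Both inhibitory receptors fell. Sirpa, which binds CD47 and restrains phagocytosis, was at 8.73, 10.1, 19.7 and 3.4 TPM in ENT1KO, against 65.6, 88.2 and 58.6 TPM in WT, a log2 difference of -2.83 ± 0.46 (SE; limma-trend adjusted p = 0.00271). Pirb, a receptor for class I major histocompatibility molecules, was at 5.16, 4.19, 9.61 and 1.95 TPM in ENT1KO, against 17.9, 26.4 and 20.3 TPM in WT, a log2 difference of -1.98 ± 0.39 (SE; limma-trend adjusted p = 0.00478). Pirb belongs to a cluster of near-identical Pira genes, so its reads are uncertain. Neither lost its call in an alternative that was tried.

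The make-up of the RNA of these genes was then compared, as the share of the summed TPM of the 39 genes held by each role. The 3 WT libraries lay close together, with core identity genes at 24.3% to 26.3%, C1q at 15.8% to 16.4% and lipid-associated and lysosomal genes at 30.3% to 33.1%. The Fc receptor and adaptor share was 23.4, 21.4, 16.2 and 26.98% in ENT1KO, against 12.7, 12.04 and 12.9% in WT, without overlap. Most of this was Fcer1g, whose own share was 11.5, 11.3, 7.51 and 11.04% in ENT1KO, against 3.78, 3.57 and 4.27% in WT, and Tyrobp, at 5.10, 4.55, 3.68 and 7.79% in ENT1KO, against 2.93, 2.91 and 3.05% in WT. NK cells also make both adaptors. Of the NK cell list 2 of 7 genes were lower and 1 higher, beside 23.1% and 27.5% of all genes. The summed list overlapped, at 572 to 903 TPM in ENT1KO and 413 to 673 TPM in WT. Most of that sum was Xcl1, which CD8 T cells also make, and the gene called higher was Txk. The NK cell receptor gene Ncr1 lay between 0.29 and 1.23 TPM in ENT1KO and between 1.17 and 1.53 TPM in WT. Klrb1c, another NK cell receptor gene, went the other way, between 10.35 and 17.52 TPM in ENT1KO and between 6.83 and 10.94 TPM in WT. Neither Ncr1 nor Klrb1c was called (limma-trend adjusted p = 0.0676 and 0.0869). The part of NK cells in the adaptor shares was not tested. The 4 Fcgr receptors themselves overlapped between groups, at 6.73, 5.48, 5.04 and 8.15% in ENT1KO, against 5.99, 5.56 and 5.58% in WT. The uptake receptors were lower in share, at 1.87, 1.65, 1.81 and 1.29% in ENT1KO, against 2.84, 2.39 and 2.45% in WT, and the MS4A family higher, at 5.03, 4.51, 3.82 and 8.30% in ENT1KO, against 3.32, 3.40 and 3.45% in WT. The C1q share was 11.1, 13.5, 16.5 and 7.79% in ENT1KO, against 15.8, 16.4 and 16.3% in WT, and overlapped. The activation enzymes, mostly Arg1, held 2.18, 0.509, 0.772 and 2.39% in ENT1KO, against 2.26, 2.36 and 2.11% in WT: ENT1KO replicates 11 and 15 were at the WT level and replicates 12 and 14 below it. In ENT1KO replicate 14 Chil3 was at 3.9 TPM beside 11.03 TPM of Arg1. The Fc receptor and adaptor, Tyrobp and MS4A shares also followed the amount. Among the ENT1KO libraries they were highest in replicate 15, which held the least RNA of the 39 genes, then in replicates 11 and 12. They were lowest in replicate 14, which held the most, with WT below all of these. The part of amount in the shares was not tested. These shares are descriptions without a test.

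**Figure D3:**
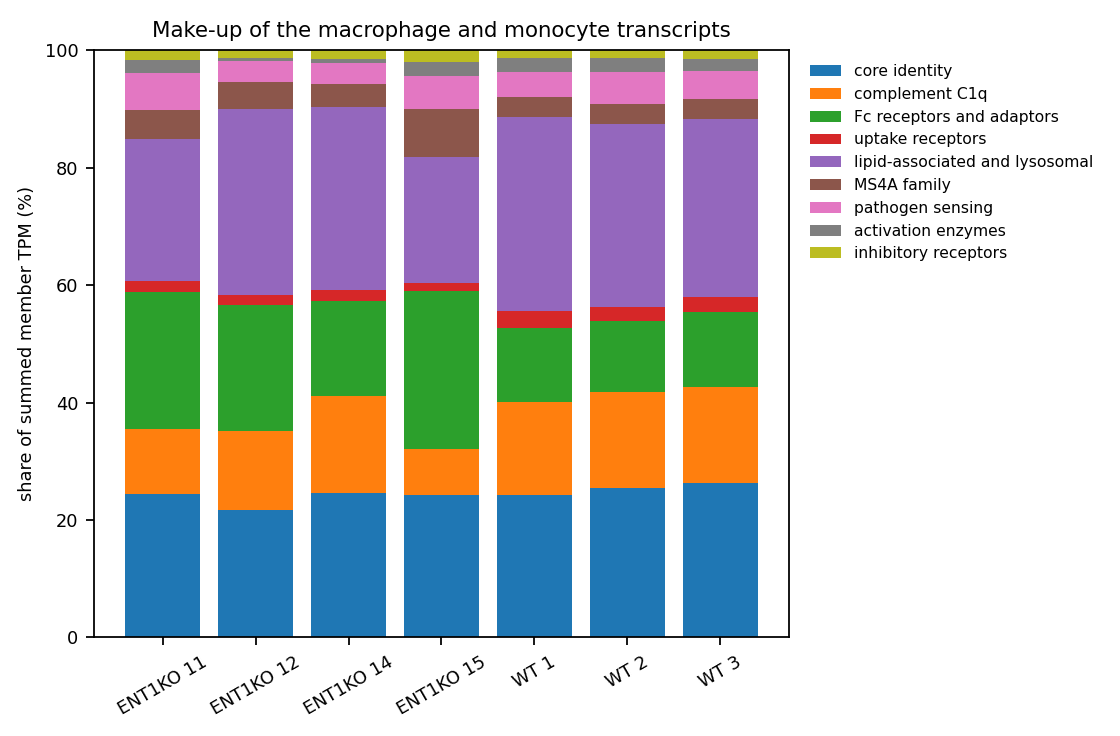
Share of the summed TPM of the 39 tested genes (y axis, %) held by each of 9 roles in each library, ENT1KO on the left and WT on the right. The 3 WT bars look alike, and the Fc receptor and adaptor segment is larger in the ENT1KO bars (16.2% to 27.0%) than in the WT bars (12.04% to 12.9%).

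Single genes were set against the summed TPM of the 6 core identity genes of the same library. This ratio shows which genes fell by more or less than the core sum did. By group means, most of the core sum was Lyz2, at 1272 of 1660 TPM in WT and 171.7 of 248.3 TPM in ENT1KO. In ENT1KO replicate 15 Lyz2 was 31.98 of 65.58 TPM, so the divisor's make-up differed between libraries. The core genes did not move as one. Against their own sum, Cybb, Cd68 and Aif1 were higher in ENT1KO without overlap (mean differences in log2 ratio of 1.0, 0.82 and 0.49). Lyz2 was lower without overlap (-0.27), and Adgre1 and Csf1r overlapped. Of the 33 genes outside the core, 6 had lower ratios in ENT1KO without overlap between groups (Trem2, Pla2g7, Mrc1, Lgmn, Msr1 and Fcgr3) and 6 had higher ones (Gpnmb, Pltp, Fcer1g, Tyrobp, Pirb and Ms4a6c), while 21 overlapped. Over all genes above 0 TPM in each library, 2.28% were lower and 89.9% higher, the core itself having fallen. The Trem2 log2 ratio was -6.91, -6.00, -6.71 and -7.39 in ENT1KO, against -5.67, -5.81 and -5.72 in WT, and that of Mrc1 was -5.35, -5.21, -5.13 and -5.98 in ENT1KO, against -4.60, -4.82 and -4.79 in WT. For Fcer1g the log2 ratio was -1.08, -0.94, -1.71 and -1.14 in ENT1KO, against -2.68, -2.84 and -2.62 in WT. In Trem2 and Mrc1 replicate 15 lay lowest, and in Fcer1g the 4 ENT1KO libraries were all above WT with replicate 14 the nearest to it. The mean differences in log2 ratio, ENT1KO minus WT, were -1.02 for Trem2, -0.68 for Mrc1, 1.49 for Fcer1g, 0.87 for Tyrobp, 1.64 for Pltp and 2.40 for Gpnmb. These 6 genes kept groups free of overlap when Lyz2 was left out of the core and when the geometric mean of the C1q genes replaced it, as 1.58% of all genes were lower and 88.0% higher with each of the 3 divisors. Pla2g7, Lgmn, Msr1, Fcgr3, Pirb and Ms4a6c did not. The sizes moved with the divisor. Without Lyz2 the differences were -1.58 for Trem2, -1.24 for Mrc1, 0.93 for Fcer1g, 0.31 for Tyrobp, 1.08 for Pltp and 1.84 for Gpnmb. With the C1q divisor they were -0.65, -0.31, 1.86, 1.24, 2.0 and 2.76 in that order. With the divisor free of Lyz2, 13 of the 33 genes were lower and 4 higher, beside 3.93% and 88.0% of all genes. With the C1q divisor 2 were lower and 8 higher, beside 1.65% and 90.0%. The Arg1 ratio, at -3.75, -5.68, -5.51 and -3.59 in ENT1KO, against -3.49, -3.50 and -3.77 in WT, overlapped, being far below WT in replicates 12 and 14 and at the WT level in replicates 11 and 15.

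**Figure D4:**
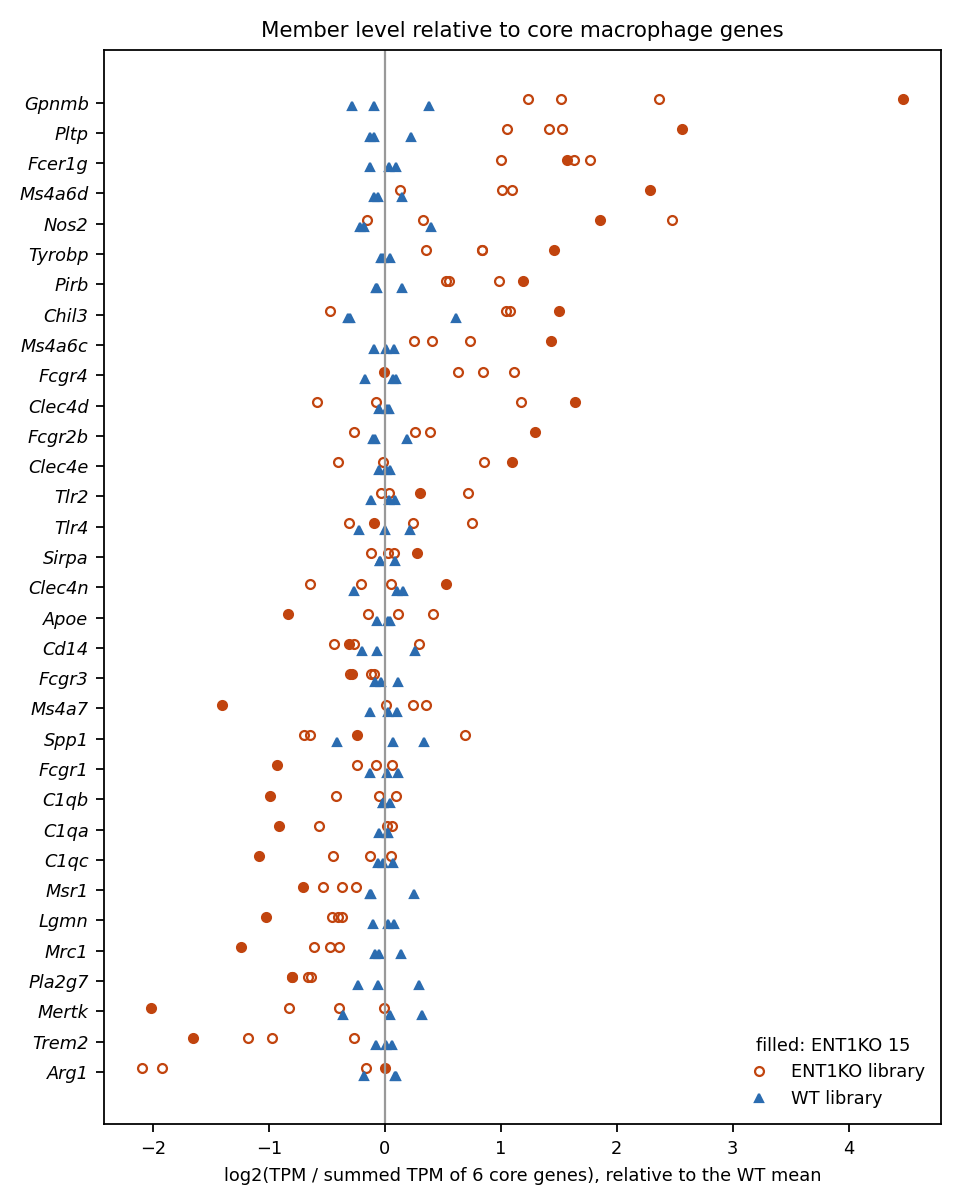
log2 of each gene's TPM over the summed TPM of the 6 core identity genes, minus the WT mean (x axis), for the 33 genes outside the core, with ENT1KO libraries as circles (replicate 15 filled) above WT libraries as triangles. Genes at the top, such as Gpnmb, Pltp and Fcer1g, sit to the right of WT in ENT1KO, and genes at the bottom, such as Trem2, Pla2g7 and Mrc1, to the left.

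Ratios between genes of different macrophage states were compared within each library. Mrc1 per Cd68 was lower in ENT1KO without overlap, at 0.234, 0.256, 0.366 and 0.0520 in ENT1KO, against 0.584, 0.5004 and 0.478 in WT, with replicate 15 lowest. In that library the divisor Cd68 was at 16.7% of its WT mean. The other core genes there ran from 2.5% (Lyz2) to 11.1% (Cybb), so the ratio also depends on Cd68. Spp1 per summed C1q, which sets osteopontin RNA against complement RNA, was 0.444, 0.863, 0.314 and 0.868 in ENT1KO, against 0.643, 0.535 and 0.401 in WT, and the groups overlapped. Which cells the Spp1 RNA came from was not tested. Arg1 per summed C1q was 0.163, 0.0316, 0.0328 and 0.259 in ENT1KO, against 0.137, 0.137 and 0.118 in WT: replicates 11 and 15 lay above all WT values and replicates 12 and 14 below them. Apoe per Lyz2 was 0.8293, 0.9692, 1.138 and 0.7117 in ENT1KO, against 0.8319, 0.7704 and 0.8212 in WT, and overlapped. These ratios were described without a test.

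The ENT1KO libraries differed among themselves in which genes remained. Between replicate 14, the richest, and replicate 15, the poorest, the ratio of levels had a median of 6.56 over the 39 genes and ran from 0.819 (Gpnmb) to 31 (Mertk). It exceeded 10 for 13 genes, among them Ms4a7 (24.2), Apoe (18.2), C1qc (16.9), Mrc1 (13.8), Trem2 (12.3) and Lyz2 (11.4). It stayed under 3 for 7 genes, which were Gpnmb, Clec4d (1.65), Ms4a6d (1.71), Cd68 (1.96), Arg1 (2.02), Fcgr2b (2.61) and Nos2 (2.66). In replicate 15 none of the defining markers was at 0. Mertk at 0.06 TPM and Fcgr1 at 0.79 TPM were under 1 TPM. Adgre1 was at 2.17, Csf1r at 3.13, C1qb at 7.17 and C1qa at 8.36 TPM, beside 20.01 TPM of Cd68. Replicate 15 also held the lowest fibroblast and tumour cell level, at 1.89 TPM summed over 18 genes, and S100a8, a neutrophil gene, at 7.37 TPM, where the other ENT1KO libraries had 0.16 to 0.70 TPM. The part of each cell type in these patterns was not tested.

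Macrophage genes outside the list were read from 6 lists with 62 tested genes, of which 49 fell and 2 rose (limma-trend; 23.1% and 27.5% of all genes). Not all of these genes are restricted to macrophages, and which cells their RNA came from was not tested. Among transcription factors of macrophages 7 of 9 fell, with Maf at 3.72 ± 1.45 TPM in ENT1KO and 17.9 ± 3.46 TPM in WT (log2 -2.03, limma-trend adjusted p = 0.0013) and Cebpb, a regulator of myeloid differentiation, at 24.9 ± 2.67 TPM in ENT1KO and 56.3 ± 12.6 TPM in WT (log2 -1.13, adjusted p = 0.00157). Spi1, which encodes PU.1, averaged 8.65 ± 6.17 TPM in ENT1KO and 47.7 ± 17.6 TPM in WT (log2 -2.47, limma-trend adjusted p = 0.00398). Irf8, which T cells also express, was the most abundant of them and did not pass (143 ± 66.7 TPM in ENT1KO and 110.3 ± 23.3 TPM in WT, limma-trend adjusted p = 0.655).

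Among 11 monocyte and recent recruit genes 8 fell and 2 rose. Fn1 (fibronectin), which fibroblasts and tumour cells also make, was at 27.01 ± 28.01 TPM in ENT1KO and 575 ± 191 TPM in WT (log2 -4.83, limma-trend adjusted p = 0.00204), and Itgam, the CD11b integrin, at 10.7 ± 6.28 TPM in ENT1KO and 70.2 ± 18.2 TPM in WT (log2 -2.76, adjusted p = 0.00278). The risers were Ly6c2, at 1513, 2121, 1745 and 2117 TPM in ENT1KO, against 387, 318 and 886 TPM in WT, and Plac8, at 485, 721, 449.6 and 432 TPM in ENT1KO, against 213, 206 and 349 TPM in WT, both also expressed by CD8 T cells. Their log2 differences were 1.96 and 1.03 (limma-trend adjusted p = 0.00299 and 0.00912). Without ENT1KO replicate 15 the 6 lists held 4 risers. Of 8 tested genes of resident macrophages 7 fell, among them Selenop, a selenium carrier protein, at 45.9 ± 12.6 TPM in ENT1KO and 132 ± 31.3 TPM in WT, and Siglec1, the sialoadhesin of resident macrophages, at 1.38 ± 1.27 TPM in ENT1KO and 10.6 ± 3.63 TPM in WT (limma-trend adjusted p = 0.00221 and 0.00324). Timd4, Vsig4 and Cd163 were under the filter.

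Of 12 genes of lipid-loaded macrophages 11 fell. Fabp5, a fatty acid binding protein, was at 17.1 ± 4.94 TPM in ENT1KO and 58.5 ± 11.6 TPM in WT (limma-trend adjusted p = 0.00138). Ctsd, the lysosomal protease cathepsin D and the most abundant of the list, did not pass (490.4 ± 67.5 TPM in ENT1KO and 436 ± 67.5 TPM in WT, limma-trend adjusted p = 0.345). Of 12 inflammatory genes 9 fell, with Il1a at 0.757 ± 0.529 TPM in ENT1KO and 11.1 ± 3.20 TPM in WT, Il1b at 48.5 ± 25.2 TPM in ENT1KO and 276 ± 87.96 TPM in WT and Acod1, the enzyme that makes itaconate, at 3.11 ± 1.24 TPM in ENT1KO and 12.3 ± 3.57 TPM in WT (limma-trend adjusted p = 0.00121, 0.00363 and 0.00253). Tnf, Il12b and Cd86 did not pass. Of 10 alternative activation genes 7 fell, with Hmox1, the haem-degrading enzyme, at 8.46 ± 3.70 TPM in ENT1KO and 96.2 ± 19.1 TPM in WT and the elastase Mmp12 at 1.80 ± 0.846 TPM in ENT1KO and 24.3 ± 9.84 TPM in WT (limma-trend adjusted p = 0.00121 and 0.00121), while Retnla, Clec10a and Pdcd1lg2 did not pass. Means are ± SD over n = 4 ENT1KO and n = 3 WT libraries.

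Fibroblast and tumour cell, neutrophil and erythroid genes were lower along with the macrophage genes, and CD8 T cell genes were higher. The counts below stand beside 23.1% of all 13798 genes called lower and 27.5% called higher. The summed fibroblast and tumour cell list, of which 17 of 17 tested genes fell, was 54.2, 166, 829 and 1.89 TPM in ENT1KO, against 5818, 7365 and 3893 TPM in WT. The CD8 T cell list, of which 14 of 14 rose, was 9774, 11210, 9105 and 9944 TPM in ENT1KO, against 4459, 2857 and 6871 TPM in WT. WT replicate 2, highest in macrophage genes, was lowest in CD8 T cell genes, and WT replicate 3 the reverse. Macrophage RNA per CD8 T cell RNA, as the ratio of the summed lists, was 0.0842, 0.0916, 0.224 and 0.0272 in ENT1KO, against 1.33, 2.92 and 0.784 in WT. Fibroblast and tumour RNA per macrophage RNA was 0.0659, 0.162, 0.406 and 0.00699 in ENT1KO, against 0.978, 0.885 and 0.723 in WT, without overlap. The neutrophil list, from cells that also make Lyz2, Clec4d, Clec4e and Pirb, ran from 2.78 to 13.3 TPM in ENT1KO and from 96.9 to 117 TPM in WT, with 5 of 5 tested genes lower and Ly6g at 0 in 2 ENT1KO libraries and 1 WT library. The dendritic cell list ran from 571 to 1383 TPM in ENT1KO and from 2181 to 3175 TPM in WT, with 6 lower and 1 higher of 13. In WT most of that sum was H2-Aa, H2-Ab1, H2-Eb1 and Cd74, class II genes that macrophages also express, while the dendritic cell gene Flt3 lay between 1.68 and 2.4 TPM in ENT1KO and between 1.99 and 2.74 TPM in WT (limma-trend adjusted p = 0.357). Xcr1, a gene of cross-presenting dendritic cells, was under the filter, at 0.45 to 0.97 TPM in ENT1KO and 0.12 to 0.41 TPM in WT, without overlap. Zbtb46, another dendritic cell gene, went the other way, at 0.35 to 1.2 TPM in ENT1KO and 1.09 to 1.52 TPM in WT (limma-trend adjusted p = 0.0702). Batf3 and Fscn1 were among the genes called lower, and Ccr7 was the gene called higher. The erythroid list (5 of 5 lower) reached 238 TPM in ENT1KO and 1966 TPM in WT, the endothelial list fell in 6 of 7 genes, and 1 endothelial gene rose. The B cell list had 2 tested genes, both higher, and Ms4a1, a B cell surface gene, lay between 0.02 and 0.27 TPM in ENT1KO and between 0 and 0.69 TPM in WT. The part of these cell types in the macrophage gene differences was not tested.

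**Figure D5:**
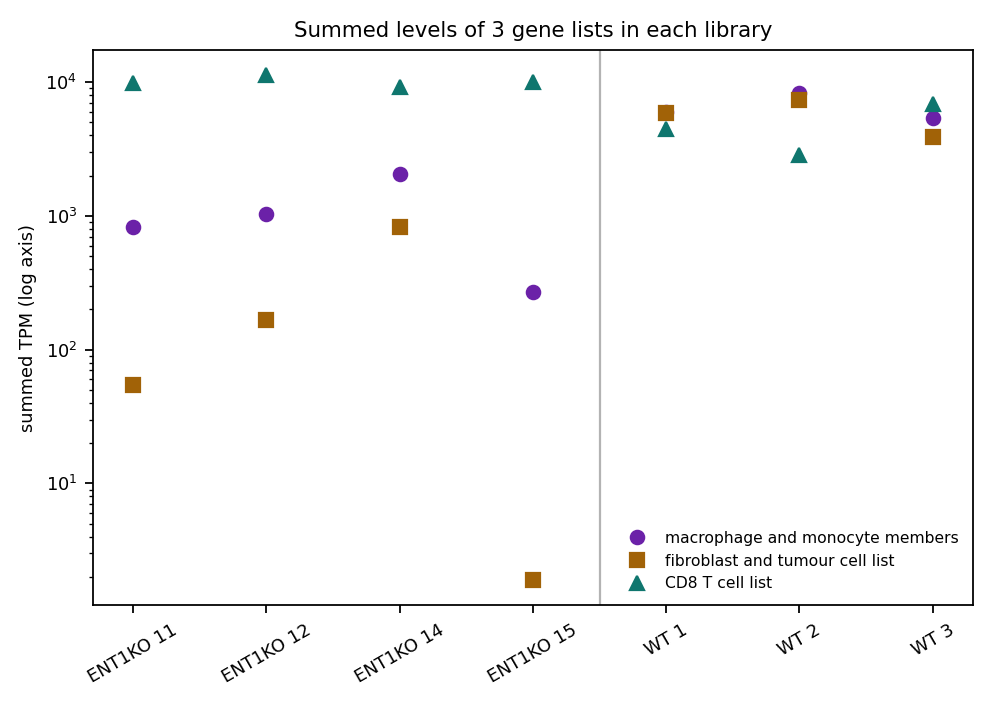
Summed TPM on a log axis of the 39 macrophage and monocyte genes (circles), the fibroblast and tumour cell list (squares) and the CD8 T cell list (triangles) in each library, ENT1KO on the left. In WT the 3 sums lie within one order of magnitude, while in ENT1KO the CD8 T cell sum stays near 10010 TPM on average and the other sums are far lower; replicate 14 lies nearest to WT.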

How the data were processed

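RNA-seq was measured in 7 libraries of sorted tumour CD8 T cells (4 ENT1KO, 3 WT, grouped by sample title; no batch is labelled). The authors deposited a table of gene TPM, stranded by its name, and a second table with normalized counts, a signal made by dividing gene read counts by 1 size factor per library, as its values show. Its other columns, also deposited by the authors, are their comparison: log2 fold change and its error, group mean and SD in log2, a test score, and p-values. GRCm39, STAR 2.7.1a, RSEM, DESeq, DESeq2 1.30.1 and Trimmomatic 0.35 and 0.38 appear in the submitters' processing notes, which give no roles here.

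The 13798 genes that reached 1 TPM in 3 or more libraries were compared between genotypes by limma-trend (limma 3.58.1 in R 4.3.3, robust) on log2(TPM + 1), and p-values were adjusted over all of them by Benjamini-Hochberg, with calls at 0.05. The script was checked on simulated data. Normalized counts were whole multiples of 1 step per library (100% within 0.01), but no count test was run because the steps of WT replicates 1 and 3 lie too near 1 to prove whole reads. No count intervals were computed. Sums, shares and ratios of members were described without a test. Figures were drawn with matplotlib 3.10.9.

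The members and lists were chosen with earlier results of these data known. Genes with values in each library were named by a rule: in each role the 2 with the highest mean TPM, any tested gene not called, and any whose ratio to the 6 core genes did not overlap between groups. C1qc was added after its values were seen. From each other macrophage list came the 2 genes with the smallest p and the most abundant one, of which 1 is not reported here. Spi1 and other genes listed by name only were added after their values were seen. Alternatives were pseudocounts of 0.1 and 5, filters of a value above 0 in 1 library and of 5 TPM in 3, quantile normalization, normalized counts, array weights, other divisors and leaving out each library.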

Additional observations from a re-analysis of the deposited data

Results flagged for a closer look

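Among 118 values tested in the 4 ENT1KO libraries, 4 had 1 library far from the other 3, by the gap to its neighbour as a share of their range (Dixon's test at 95%), and chance gives about 1 in 20. The share of core identity genes was lowest in replicate 12 (21.8%, the others 24.2% to 24.6%; gap 0.867 of the range). The Fcer1g share was lowest in replicate 14 (7.51%, the others 11% to 11.5%; gap 0.880). The ratio of Fcgr2b to summed Fcgr1, Fcgr3 and Fcgr4 was highest in replicate 15 (2.21, the others 0.623 to 0.813; gap 0.8805). The log2 ratio of Lgmn to the core genes was lowest in replicate 15 (-3.49, the others -2.92 to -2.84; gap 0.877).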

How the results depend on the processing

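The 38 falls numbered 35 to 38 under the other pseudocounts, filters, scalings and weights, with 35 of 35 members tested at 5 TPM, and 28 to 38 when 1 library was left out; no member rose in any of these. The median difference of the tested members lay between -3.24 (normalized counts) and -2.16 (pseudocount 5), and between -3.13 and -2.24 with 1 library left out. The log2 ratio of summed member TPM, -2.65, was -2.60 without Lyz2 and -3.21 to -2.34 with 1 library left out. Of the 38 members called lower, 28 were called in each alternative that tested them and 10 lost the call in at least 1, all 10 of them without WT replicate 2. Fcer1g (limma adjusted p = 0.0601) and Nos2 (0.0627) also lost it when genes above 0 in 1 library were tested. The Gpnmb difference turned to 0.08 after quantile normalization. The cause of these changes was not tested. Of the 6 macrophage lists, 49 genes were called lower (40 to 51 with 1 library left out) and 2 higher (2 to 4, with 4 without ENT1KO replicate 15).

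Ratios to the core genes depended on the divisor. Members whose lower ratio did not overlap numbered 6, 13 when Lyz2 was left out of the divisor (3.93% of all genes) and 2 with the geometric mean of the C1q genes (1.65%), and 6 to 9 with 1 library left out; for higher ratios the counts were 6, 4, 8 and 6 to 8. With the C1q divisor the Fcgr3 ratio turned to 0.17. Each divisor moves all ratios by 1 shift per library. Without Lyz2 in the sum, the share difference, ENT1KO minus WT, was 2.58 percentage points for core identity genes (-1.58 with it) and -1.21 for uptake receptors (-0.91 with it). No paired analysis was possible because the replicate numbers of the groups differ (11, 12, 14 and 15, and 1, 2 and 3). TPM keeps no depth, so precision is limited to the spread of 4 and 3 libraries, and for genes near 1 TPM the pseudocount shrinks the difference.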
